A study of Mus musculus with 12 samples.

Results

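The 42 genes described here repair mismatched bases and broken DNA. They were chosen by name, as the listed rows of the deposited count and TPM tables, out of 55385 gene identifiers. All 42 were found under 1 identifier each, and all 42 were among the 15283 genes with enough counts to be tested. They comprise 6 genes of mismatch repair, 14 of homologous recombination, 10 of the Fanconi pathway, 4 of end joining, 4 damage signalling kinases and 4 genes for single-strand breaks, base damage and direct reversal. RNA was sequenced from endometrial cells of C57BL/6 mice in 12 libraries, 4 in each of 3 groups. The groups were primary cultured cells of normal endometrium (titled B6, called normal here), the endometrial cancer line mECC (titled DM) and the endometrial cancer line HPmECC (titled WT). The series' design text mentions cancer lines that overexpress Myc and others that do not, without naming them. The labels give no other allele, treatment, time or age, and both cancer groups are single lines. Nothing ties the 4 libraries of a group to separate cultures or animals, and p-values therefore cover just the spread among these libraries, which may be technical.

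As background, the mismatch repair proteins form dimers: the MutS type finds a mispaired base, the MutL type marks the faulty strand, and the exonuclease EXO1 removes it. Loss of mismatch repair is a known trait of a subset of endometrial cancers. A double-strand break can be repaired by homologous recombination, which copies an intact sister strand and works mainly in dividing cells, or by end joining, which seals the ends directly. The Fanconi proteins unhook crosslinks that tie both strands together and pass the break to recombination, and the kinases ATM, ATR, CHEK1 and CHEK2 signal the damage.

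Library totals ran from 16332060 to 26873582 counts, and the coefficient of variation between libraries of a group, beyond counting error, was 4.27%. Per-gene levels are given as CPM, counts scaled to equal library size by trimmed means, with SD over 4 libraries, and levels of different genes are compared only as TPM, which allow for transcript length. Of 9 epithelial marker genes, the summed level was 8970 to 9298 CPM in the normal libraries, 1579 to 1617 in mECC and 309 to 325 in HPmECC, where Epcam, Cdh1, Cldn4 and Muc1 were each under 1 CPM. Smooth muscle markers summed to 2275 to 2741 CPM in normal libraries, 51.2 to 53.5 in mECC and 186 to 247 in HPmECC. Leukocyte markers summed to 219 to 235, 5.73 to 8.04 and 13.1 to 16.1 CPM in the same order, endothelial markers to 109 to 122, 3.26 to 4.15 and 5.12 to 7.71, and mesothelial markers to 430 to 470, 36.4 to 42 and 8.98 to 11.1. The 9 fibroblast markers went the other way as a sum, from 2183 to 2719 CPM in normal libraries to 7548 to 8370 in mECC and 8675 to 9356 in HPmECC, although 5 of them were higher and 4 lower in each line against normal. The 22 proliferation genes summed to 1712 to 1758 CPM in normal, 2172 to 2363 in mECC and 2896 to 3005 in HPmECC, with no overlap between groups. Of these 22, 15 were higher and 5 lower in mECC against normal, where 42.1% of all tested genes were higher and 44.2% lower by the same edgeR test, and 19 were higher and 1 lower in HPmECC than in mECC, where 33.8% and 34.5% were. The part of cell makeup and of proliferation in the differences below was not tested, and in bulk RNA fewer cells of a type and less RNA per cell cannot be told apart.

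Promoter sequences were found for 35 of the 42 members in RefSeq (build GRCm38.p6), 41 promoters in all, each reaching from 250 bases before to 50 bases after a start site. Both strands were searched for 4 motifs, none of which contains another. The E2F-type letters GCGGGAA were present in 13 of the 41 member promoters (31.7%) and in 4.60% of all 32851 promoters of that length. The CCAAT box letters CCAAT were present in 26 of 41 (63.4%) against 37.4% of all. The E-box letters CACGTG were present in 2 of 41 (4.88%) against 7.15%, and the CHR-type letters TTTGAA in 2 of 41 (4.88%) against 17.9%. A match says only that these letters lie in the window. The promoters of 5 genes on which the results turn follow, written 5′ to 3′ on the strand of the gene, with matched letters in capitals. Rad51c (chr11:87404905-87405204, minus strand), Xrcc6 (chr15:82016119-82016418, plus strand), Chek2 (chr5:110839733-110840032, plus strand) and Bard1 (chr1:71102923-71103222, minus strand) hold the E2F-type letters, the last of them on the opposite strand as TTCCCGC. Mgmt (chr7:136894336-136894635, plus strand) holds none of the 4 motifs in this window.
Rad51c: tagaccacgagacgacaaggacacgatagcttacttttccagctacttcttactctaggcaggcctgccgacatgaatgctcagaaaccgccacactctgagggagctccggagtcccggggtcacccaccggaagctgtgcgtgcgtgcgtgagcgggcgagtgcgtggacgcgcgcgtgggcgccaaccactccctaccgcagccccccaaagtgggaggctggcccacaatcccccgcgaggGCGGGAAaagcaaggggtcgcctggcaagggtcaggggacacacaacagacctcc
Xrcc6: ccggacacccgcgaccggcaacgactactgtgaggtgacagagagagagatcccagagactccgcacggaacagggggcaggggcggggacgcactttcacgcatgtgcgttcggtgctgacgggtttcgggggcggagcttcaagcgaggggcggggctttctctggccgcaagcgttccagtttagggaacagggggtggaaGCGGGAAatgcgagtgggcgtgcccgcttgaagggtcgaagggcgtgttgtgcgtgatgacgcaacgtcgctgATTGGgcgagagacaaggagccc
Chek2: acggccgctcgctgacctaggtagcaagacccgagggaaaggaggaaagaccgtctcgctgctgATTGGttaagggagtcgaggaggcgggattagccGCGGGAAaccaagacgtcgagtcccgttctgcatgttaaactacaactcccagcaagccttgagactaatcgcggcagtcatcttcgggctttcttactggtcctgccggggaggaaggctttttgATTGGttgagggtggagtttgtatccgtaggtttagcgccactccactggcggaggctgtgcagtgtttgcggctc
Bard1: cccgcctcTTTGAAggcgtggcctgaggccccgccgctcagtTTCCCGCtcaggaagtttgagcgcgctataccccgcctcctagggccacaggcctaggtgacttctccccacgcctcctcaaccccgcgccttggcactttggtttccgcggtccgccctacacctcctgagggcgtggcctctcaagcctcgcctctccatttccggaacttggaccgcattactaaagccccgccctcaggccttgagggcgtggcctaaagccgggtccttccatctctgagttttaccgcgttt
Mgmt: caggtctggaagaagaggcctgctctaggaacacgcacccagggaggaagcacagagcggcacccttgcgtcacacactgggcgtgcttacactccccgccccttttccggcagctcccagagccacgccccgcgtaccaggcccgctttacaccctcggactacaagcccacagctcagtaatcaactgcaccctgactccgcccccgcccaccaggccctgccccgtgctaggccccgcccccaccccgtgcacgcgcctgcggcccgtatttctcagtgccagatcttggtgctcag
In the promoter of Rad51c the E2F-type match began 5 bases before the start site, and in those of Xrcc6 and Chek2 46 and 152 bases before it. In Bard1 it began 208 bases before the start site, and a CHR-type match 242 bases before it. Rad51c and Mgmt each have a further listed promoter, for another start site, which held none of the 4 motifs. The capital letters ATTGG in Xrcc6 and Chek2 are CCAAT box matches on the opposite strand. The promoters of Rad51b, Blm and Fance, not shown, held no E2F-type letters.

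Repair gene transcripts differed widely in level. In normal cells the most abundant members per transcript length were Parp1, the sensor of single-strand breaks, at 41.2 ± 1.18 TPM and Xrcc1, the scaffold of single-strand break repair, at 38.6 ± 2.13 TPM. The least abundant were Rad51c at 1.85 ± 0.21 TPM and Rad51b at 1.40 ± 0.35 TPM, whose ranges over libraries were not tested against each other. In mECC, Parp1 (53.6 ± 1.15 TPM) and the end joining gene Xrcc6 (52.4 ± 1.5 TPM) stood at the top, and differed by less than the sum of their SDs. In HPmECC, Xrcc6 (78.1 ± 1.29 TPM) and Parp1 (77.9 ± 1.03 TPM) again differed by less than that sum. The lowest member in both lines was Mgmt, at 0.370 ± 0.057 TPM in mECC and 0.445 ± 0.114 TPM in HPmECC. The heat map of library levels shows these changes gene by gene.

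**Figure D1:**
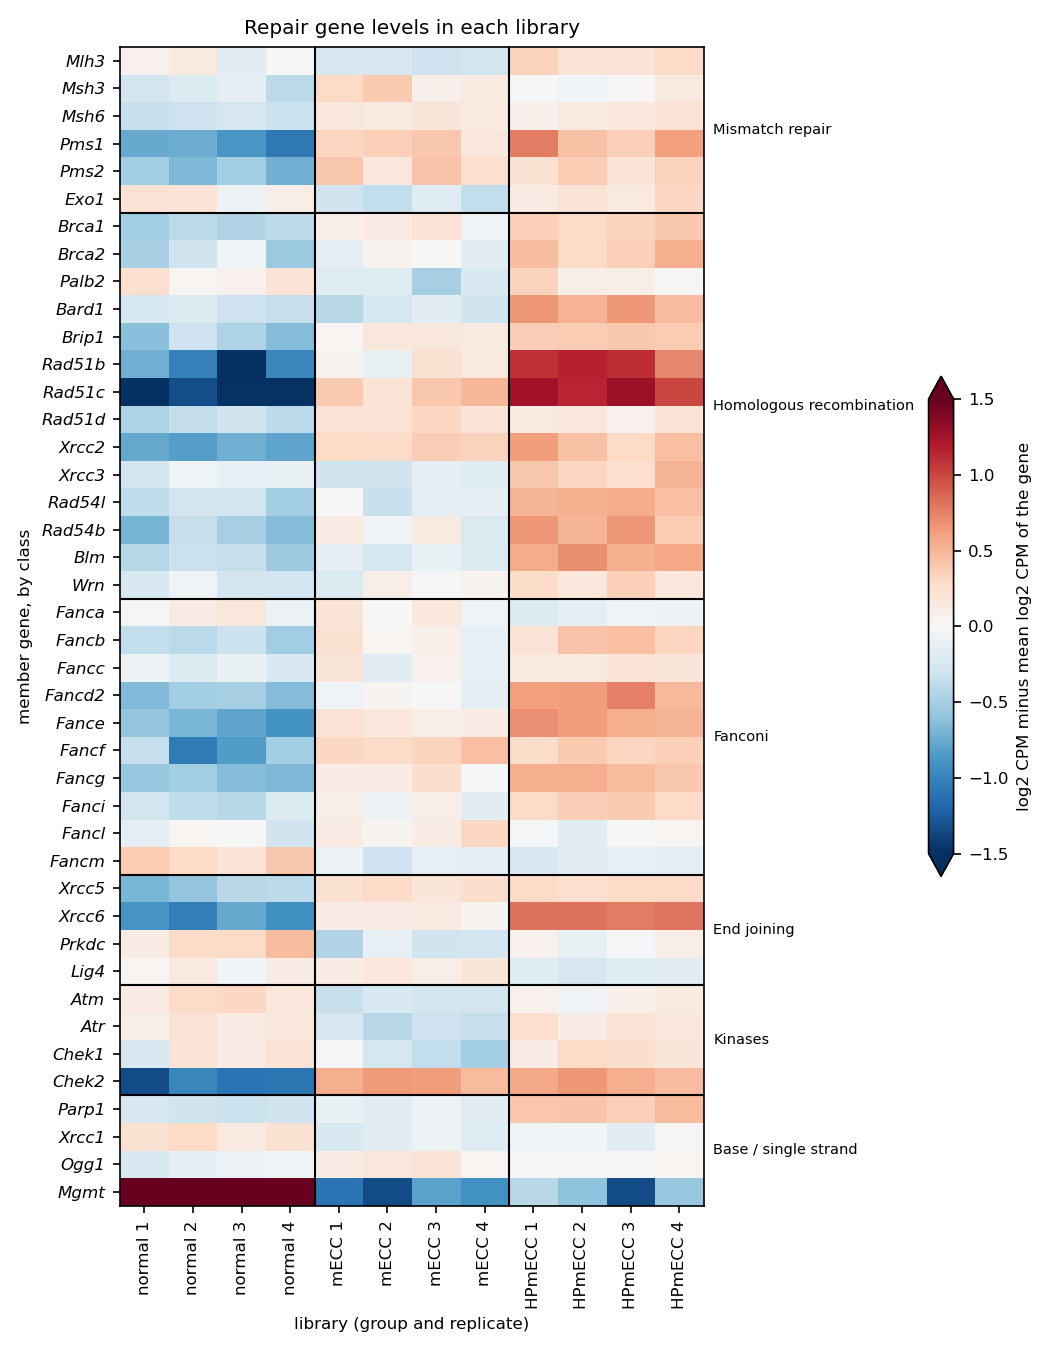
Heat map of the 42 members (rows, by class) in the 12 libraries (columns). Colour gives log2 CPM minus the mean log2 CPM of that gene over the libraries, and values beyond 1.5 take the end colour; most recombination, Fanconi and Ku rows are blue in normal libraries and red in HPmECC, while Mgmt is the reverse.

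More members were higher than lower in each cancer line relative to normal cells, and more were higher in HPmECC than in mECC. In mECC against normal cells, 27 of 42 members were called higher, where 42.1% of all tested genes were, and 10 were called lower, where 44.2% were. Here a call is an edgeR quasi-likelihood test with a Benjamini-Hochberg adjusted p under 0.05 over all 15283 genes. Calls in either direction numbered 37 (86.3% of all genes). The median log2 fold change of the members was 0.27, and that of all tested genes was -0.02. Past a 2-fold change, 7 members were higher (18.4% of all genes) and 1 was lower (22.8%). In HPmECC against mECC, 27 of 42 were higher (33.8% of all genes) and 3 lower (34.5%), 30 in all (68.3%), with a median of 0.31 against 0.00 for all genes, and none passed 2-fold, where 6.73% of genes were higher and 9.4% lower by that much. In HPmECC against normal cells, 29 were higher (43% of all genes) and 7 lower (43.3%), 36 in all (86.4%), with a median of 0.68 against 0.00. There, 12 members were over 2-fold higher (18.5% of all genes) and 1 was over 2-fold lower (23%). The comparisons share groups of libraries, so they are not independent of one another. Groups did not overlap for 24 higher and 9 lower members in mECC against normal (40% and 42.3% of all genes), and for 24 higher and 2 lower in HPmECC against mECC (31.2% and 31.9%). Between HPmECC and normal, 30 members were higher and 5 lower without overlap (40.5% and 41.2% of all genes).

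These splits shift with the scaling and with the unit and test. Scaling by library totals in place of trimmed means raised the median log2 fold change of all genes by 0.24 in mECC against normal and by 0.20 in HPmECC against normal, and TPM without further scaling raised it by 0.19 and 0.15. The split of higher against lower members in mECC against normal was 31 to 7 with library totals, 29 to 3 with log2(TPM + 1), and 23 to 8 with TPM scaled by trimmed means. All genes moved too, at 7870 to 5453, 7567 to 5275 and 6103 to 6572, against 6436 to 6748 in the main edgeR fit. For HPmECC against normal it was 34 to 2, 31 to 1 and 29 to 4 under the same settings. All genes there split 7726 to 5582, 7368 to 5480 and 6283 to 6416, against 6575 to 6625 in the main edgeR fit. Between the lines, members split 27 to 3 in the main fit. This fell to 25 to 6, 15 to 4 and 20 to 2 for HPmECC against mECC under the same settings. All genes split 5165 to 5275 there in the main fit, then 4661 to 5848, 3875 to 5362 and 4546 to 4586. In mECC against normal, the decreases of Mlh3, Palb2 and Chek1 were not called with library totals (-0.05, -0.16 and -0.13). The setting on log2(TPM + 1) changes the unit, the test (limma) and the scaling together, and there the decreases of Exo1, Fancm, Atm and Xrcc1 (-0.04, -0.12, -0.07 and -0.12) and the increase of Blm (0.23) were not called. With TPM scaled by trimmed means Atm and Xrcc1 were called (-0.28 and -0.36), while Exo1, Fancm and Blm were not (-0.27, -0.32 and 0.01). Brca2 was not called on either of these TPM settings, and Mlh3, Palb2 and Chek1 were not called on log2(TPM + 1). Bard1, Fanca, Fancc and Lig4 were called higher in mECC than in normal cells with library totals (0.25, 0.28, 0.39 and 0.31). In HPmECC against normal, the decreases of Prkdc, Lig4 and Xrcc1 were not called with library totals (-0.10, -0.06 and -0.08). In HPmECC against mECC, the following were not called on log2(TPM + 1): Exo1 (0.27), Brca1 (0.14), Brca2 (0.21), Palb2 (0.28), Brip1 (0.25), Wrn (0.19), Fancb (0.20), Fancg (0.22), Prkdc (0.16) and Atm (0.03), all in the same direction. Of these, Exo1 (0.33), Brca2 (0.26), Brip1 (0.30), Fancg (0.28) and Atm (0.08) were not called with TPM scaled by trimmed means either. Pms1, Fanca and Xrcc1 also lost their calls between the lines on both of these TPM settings.

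**Figure D2:**
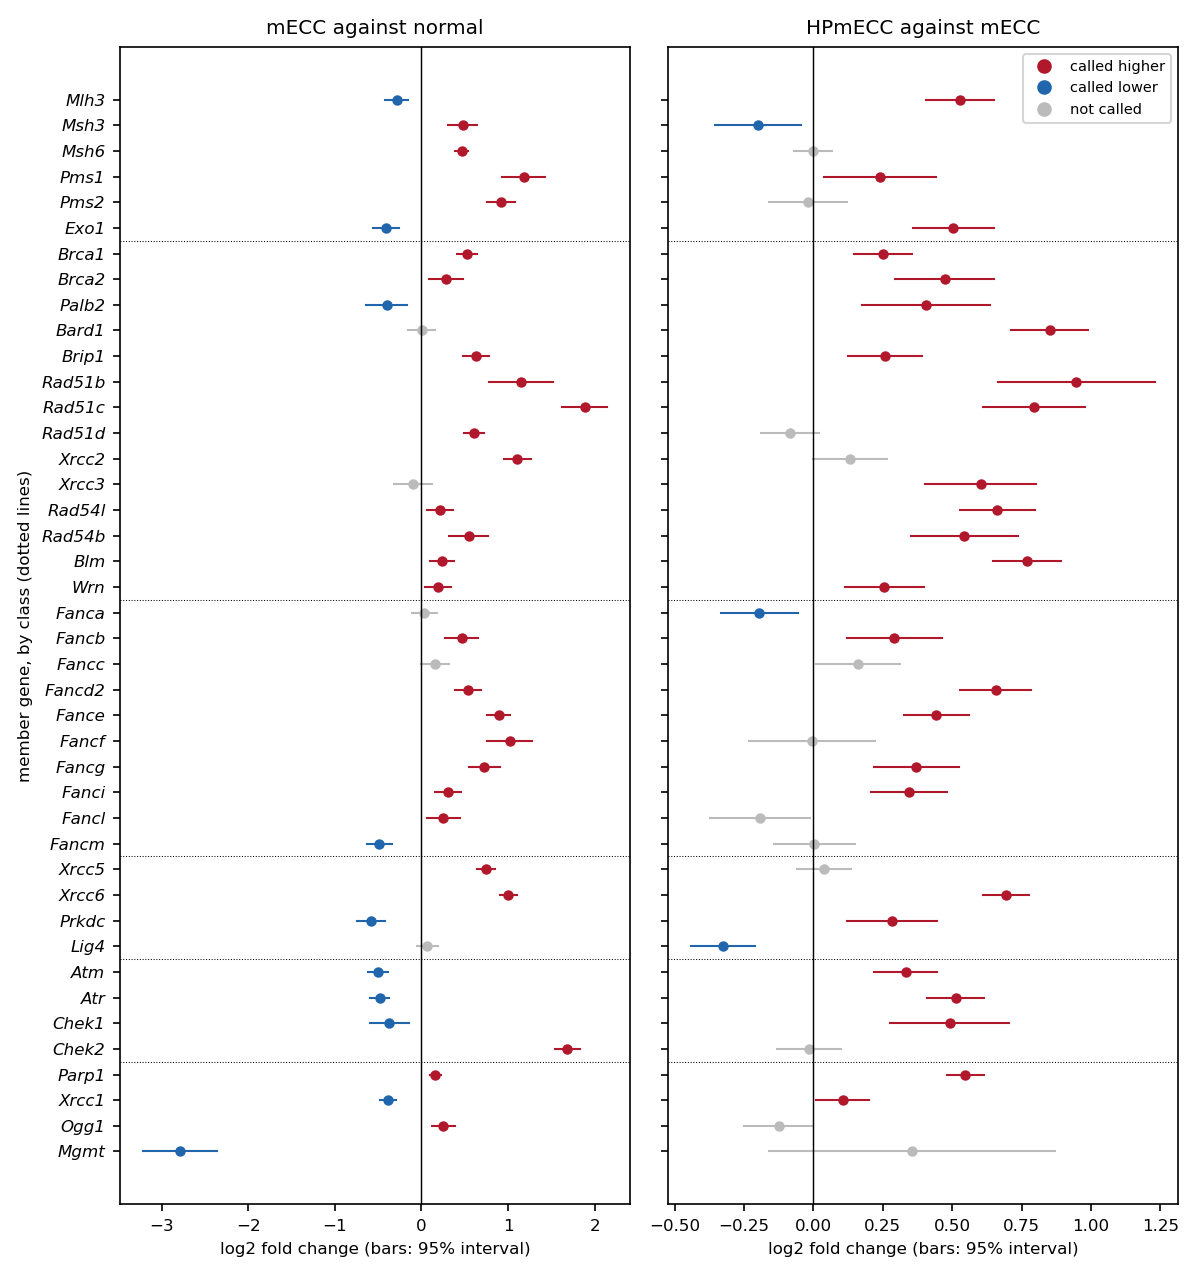
Log2 fold changes of the 42 members in mECC against normal cells (left) and in HPmECC against mECC (right), with 95% intervals as bars, on axes of different range. Red points are called higher, blue lower and grey not called at an edgeR adjusted p under 0.05; the members at the extremes are Rad51c (1.88) and Mgmt (-2.79) on the left, and Rad51b (0.95) and Lig4 (-0.32) on the right.

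Mismatch repair genes moved in different directions between normal cells and mECC. Of the 6 genes, 4 were higher in mECC (Pms1, Pms2, Msh3 and Msh6) and 2 lower (Mlh3 and Exo1). Of all tested genes, 42.1% were higher and 44.2% lower there. In HPmECC against mECC, 3 were higher (Mlh3, Exo1 and Pms1) and 1 lower (Msh3), where 33.8% and 34.5% of all genes were. In HPmECC against normal cells 5 were higher and none lower (43% and 43.3% of all genes). Pms1 (chromosome 1, 53189187 to 53297018, minus strand, GRCm38), which encodes a MutL-type protein, stood at 3.72, 3.74, 3.41 and 2.98 CPM in the normal libraries. It held 7.82, 8.03, 8.26 and 7.06 CPM in mECC, and 10.7, 8.5, 8.02 and 9.57 CPM in HPmECC. Every cancer library lay above every normal one, while the lines overlapped. mECC was 2.27-fold above normal (a log2 difference of 1.18, SE 0.12, edgeR adjusted p = 1.7e-08), and HPmECC exceeded normal 2.68-fold (1.42, SE 0.11, adjusted p = 8.87e-10). The further rise from mECC to HPmECC (0.24, SE 0.10, edgeR adjusted p = 0.0341) was lost without HPmECC replicate 1 (0.16, adjusted p = 0.15), and also without HPmECC replicate 4 or mECC replicate 1 or 4.

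Pms2, the main partner of the MutL dimer that cuts the faulty strand, was at 12.5, 11.2, 12.4 and 10.8 CPM in normal libraries, 23.5, 19.9, 23.9 and 21.2 in mECC, and 20.8, 23.2, 20.3 and 22.6 in HPmECC. Both lines lay above all normal libraries and overlapped each other. The log2 fold change was 0.92 (SE 0.08, edgeR adjusted p = 1.27e-09) in mECC and 0.90 (SE 0.08, adjusted p = 1.93e-09) in HPmECC. Between the lines it was -0.02, with a 95% interval from -0.16 to 0.12. Msh6, which pairs with another MutS protein to find single mismatches, had the highest TPM of the class (24.1, 39.4 and 37.5) and stood at 68.1 ± 2.04, 93.9 ± 1.47 and 93.7 ± 3.79 CPM in normal, mECC and HPmECC. Its log2 fold change was 0.46 in both lines against normal (adjusted p = 2.63e-10 and 2.93e-10), and the interval between the lines ran from -0.07 to 0.07. Msh3, which finds larger loops, was at 12.4 ± 0.93, 17.2 ± 1.72 and 15.0 ± 0.795 CPM. It was higher in mECC than in normal cells (0.48, adjusted p = 1.64e-05), and its decrease in HPmECC (-0.20, adjusted p = 0.0229) was lost when mECC replicate 2 was left out (-0.14, adjusted p = 0.109), and also without mECC replicate 1 or HPmECC replicate 1 or 2.

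Mlh3, a MutL gene also used in meiosis, and Exo1 were lowest in mECC. Mlh3 stood at 23.5, 25, 20.1 and 22.7 CPM in normal libraries, 18.9, 19.1, 18.2 and 18.6 in mECC, and 28.5, 25.8, 25.9 and 27.6 in HPmECC, and no 2 groups overlapped. HPmECC was 1.44-fold higher than mECC (a log2 difference of 0.53, SE 0.06, edgeR adjusted p = 2.16e-07). Its decrease in mECC against normal (-0.29, SE 0.06, adjusted p = 0.000283) turned to 0.02 on log2(TPM + 1) and stood at -0.19 on TPM scaled by trimmed means. Exo1 held 19.0, 18.8, 15.5 and 17.5 CPM in normal, 13.3, 12.7, 14.4 and 12.6 in mECC, and 17.9, 18.8, 18.1 and 20.3 in HPmECC. The mECC libraries lay below all others. Exo1 was higher by 1.42-fold in HPmECC than in mECC (0.50, SE 0.07, adjusted p = 3.48e-06) and did not pass the test between HPmECC and normal cells (0.09, 95% interval -0.06 to 0.24).

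More homologous recombination genes were called higher than lower in mECC against normal cells and in HPmECC against mECC. Their summed level was 141 to 155 CPM in normal libraries, 196 to 209 in mECC and 263 to 273 in HPmECC. Of 14, 13 were higher in HPmECC than in normal cells and none was lower (43% and 43.3% of all genes), and their median log2 fold change was 0.86. In mECC against normal, 11 were higher and 1 lower (42.1% and 44.2% of all genes), and in HPmECC against mECC 12 were higher and none lower (33.8% and 34.5%). The only member not called in HPmECC against normal cells was Palb2 (0.00, 95% interval -0.23 to 0.24).

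The largest changes of this class against normal cells were in paralogs of the central recombinase, which help it to form filaments on single-stranded DNA. Rad51c (ENSMUSG00000007646, chromosome 11, 87376645 to 87404954, minus strand) stood at 1.62, 2.39, 2.15 and 2.16 CPM in normal libraries, 7.86, 6.94, 7.93 and 8.46 in mECC, and 14.4, 13.3, 14.6 and 12.1 in HPmECC. The 3 groups formed separate steps with no overlap. mECC was 3.69-fold above normal (a log2 difference of 1.88, SE 0.12, edgeR adjusted p = 3.07e-11) and HPmECC 1.74-fold above mECC (0.80, SE 0.09, adjusted p = 1.81e-07), which put HPmECC 6.41-fold above normal (2.68, SE 0.11, adjusted p = 4.67e-14). Rad51b (chromosome 12, 79297282 to 79814690, plus strand), a partner of Rad51c in the same complex, was at 2.03, 1.66, 1.05 and 1.70 CPM in normal, 3.46, 3.09, 3.91 and 3.70 in mECC, and 7.16, 7.47, 7.24 and 5.52 in HPmECC. Its groups were separate as well. It rested on 118 counts in the 4 normal libraries together, against 156 for Rad51c. Rad51b was 2.21-fold higher in mECC than in normal cells (1.15, SE 0.18, adjusted p = 6.62e-06) and 1.93-fold higher in HPmECC than in mECC (0.95, SE 0.13, adjusted p = 5.08e-06). Its level in HPmECC was 4.27-fold that of normal cells (2.09, SE 0.16, edgeR adjusted p = 5.26e-10).

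Of the other 3 paralogs, Xrcc2 and Rad51d were called higher in both lines against normal and not between the lines. Xrcc2 was at 7.24, 6.96, 7.49 and 7.16 CPM in normal libraries, 15.3, 15.1, 15.9 and 15.7 in mECC, and 19.0, 16.7, 15.2 and 16.9 in HPmECC. The normal libraries lay apart from both lines, which overlapped. It was 2.15-fold higher in mECC than in normal cells (1.11, SE 0.07, adjusted p = 6.31e-11) and 2.36-fold higher in HPmECC (1.24, SE 0.07, adjusted p = 9.95e-12). Between the lines Xrcc2 did not pass the test (0.13, 95% interval 0.00 to 0.27, adjusted p = 0.0753), although it did without HPmECC replicate 3 (0.18, adjusted p = 0.0196). Rad51d was at 16.1 ± 0.78, 24.5 ± 0.95 and 23.1 ± 1.04 CPM and was called higher in both lines than in normal cells (0.61 and 0.53). Xrcc3 was at 4.46 ± 0.27 and 4.19 ± 0.24 CPM in normal and mECC, not called apart (-0.09, which turned to 0.15 with library totals and to 0.33 on log2(TPM + 1), where it was called), and at 6.35 ± 0.51 in HPmECC, 1.52-fold above mECC (0.60, adjusted p = 1.77e-05).

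Among the genes that start strand exchange, Brca1, Brca2 and their partners differed. Bard1 (chromosome 1, 71027498 to 71103146, minus strand), the obligate partner of Brca1 in its ubiquitin ligase, held 11, 11.3, 10.6 and 10.3 CPM in normal libraries and 9.83, 11, 11.7 and 10.7 in mECC. In HPmECC it held 20.7, 18.9, 20.6 and 18.1 CPM, above all 8 other libraries. HPmECC was 1.80-fold higher than mECC (a log2 difference of 0.85, SE 0.07, edgeR adjusted p = 1.71e-09), while mECC and normal were not called apart (0.00, 95% interval -0.15 to 0.16). Brca1 itself was at 24.1 ± 0.87, 34.9 ± 2.77 and 41.6 ± 1.26 CPM, called higher in mECC than in normal cells (0.53) and in HPmECC than in mECC (0.25). Brip1, the helicase that binds Brca1, was at 9.82 ± 1.11, 15.2 ± 0.67 and 18.2 ± 0.19 CPM (0.63 and 0.26 in the same comparisons). Brca2, which loads the recombinase, was at 12.7 ± 2.01, 15.4 ± 1.12 and 21.4 ± 1.68 CPM. Its rise in mECC (0.28, adjusted p = 0.0101) was lost without normal replicate 4 (0.20, adjusted p = 0.0591), and its rise from mECC to HPmECC was 0.47 (adjusted p = 7.03e-05). Palb2, the bridge between both, was at 5.16 ± 0.38, 3.90 ± 0.39 and 5.18 ± 0.51 CPM, lower in mECC than in normal cells (-0.40, adjusted p = 0.00308) and higher in HPmECC than in mECC (0.41, adjusted p = 0.00299).

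The motor and helicase genes were highest in HPmECC. Rad54l, a motor that remodels the joint between strands, was at 15.4 ± 1.21, 17.8 ± 1.64 and 28.2 ± 0.86 CPM in normal, mECC and HPmECC. Its increase from mECC to HPmECC was 0.66 (adjusted p = 3.57e-08), and that from normal to mECC (0.21, adjusted p = 0.0105) was lost without normal replicate 4 (0.15, adjusted p = 0.061). Rad54b, its relative, was at 6.42 ± 0.73, 9.39 ± 1.07 and 13.7 ± 1.25 CPM and was 2.13-fold higher in HPmECC than in normal cells (1.09, SE 0.10, adjusted p = 8.4e-09). Blm, the helicase that dissolves joined intermediates, held 13.3, 14.3, 14.1 and 12.3 CPM in normal libraries, 16.3, 14.9, 16.7 and 15.5 in mECC, and 26.3, 29.1, 25.9 and 26.7 in HPmECC. The HPmECC libraries stood clear of the rest, and the gap from mECC to normal was small. Blm was 2.01-fold higher in HPmECC than in normal cells (1.01, SE 0.06, adjusted p = 1.88e-11) and 1.70-fold higher than in mECC (0.77, adjusted p = 1.22e-09). Wrn, a related helicase, was at 18.4 ± 1.38, 21 ± 1.89 and 25.2 ± 1.71 CPM. Its change in mECC (0.19, adjusted p = 0.0203) was lost without normal replicate 4 (0.16, adjusted p = 0.0709), and also without normal replicate 3 or mECC replicate 2 or 4. Exons of Rad54b share 35.8% of their bases with Fsbp on the same strand, which no strand setting can separate, and those of Rad54l share 15.4% with Lrrc41 on the opposite strand, with no strand setting stated, so the values of both are uncertain.

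**Figure D3:**
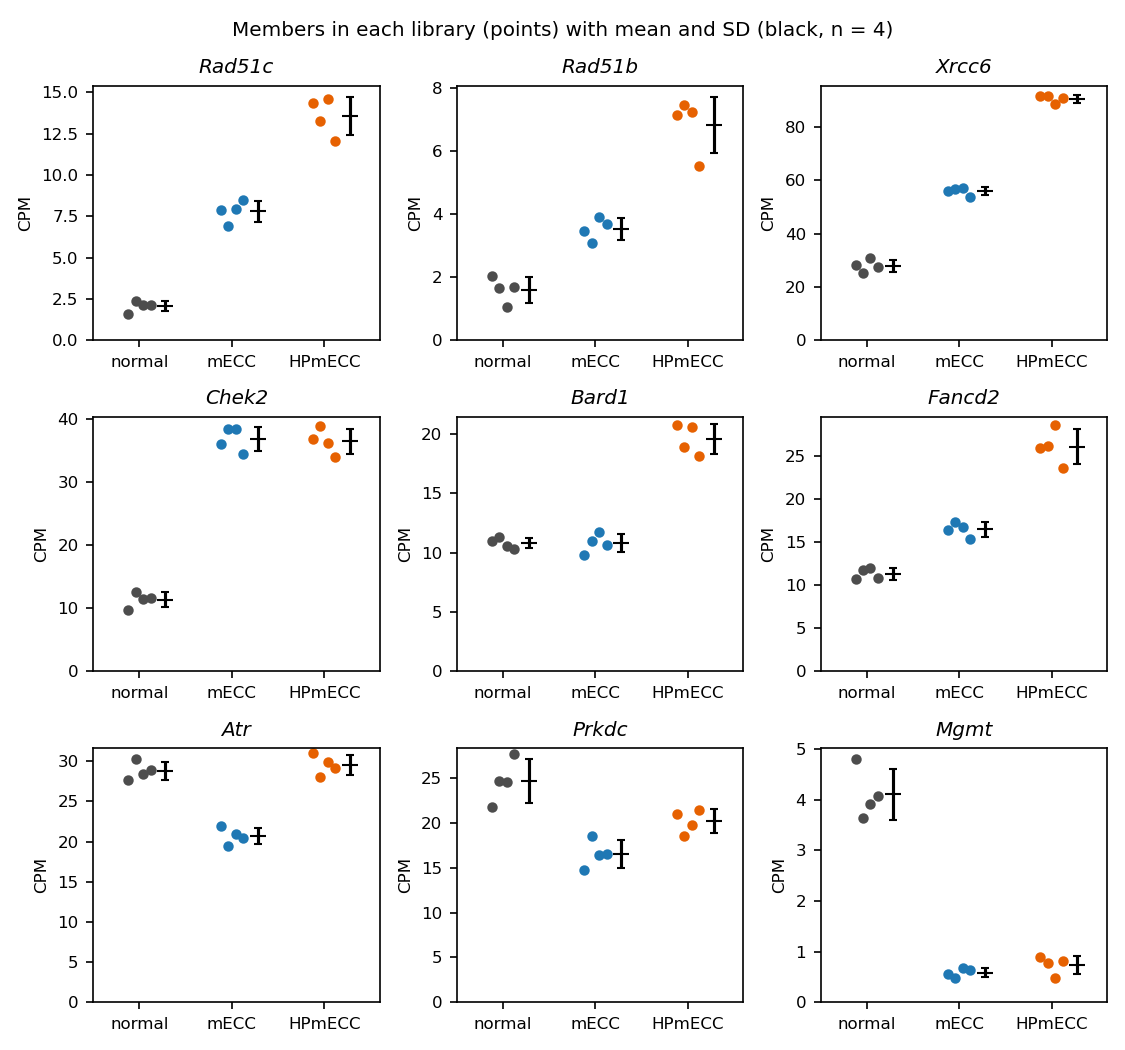
CPM of 9 members in each library (points), with the mean and SD of each group beside them (black, n = 4); each vertical axis starts at 0 and has its own range. Rad51c, Rad51b, Xrcc6 and Fancd2 form 3 steps, Chek2 is level in both lines, Bard1 is high in HPmECC alone among the 3 groups, Atr and Prkdc are lowest in mECC, and Mgmt is high in normal libraries.

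Of the 10 Fanconi genes, 7 were higher and 1 lower in mECC against normal (42.1% and 44.2% of all genes), 5 were higher and 1 lower in HPmECC against mECC (33.8% and 34.5%), and 7 were higher and 2 lower in HPmECC against normal (43% and 43.3%). Those not called higher were Fancm, Fanca and Fancc in mECC against normal, and Fancm, Fanca and Fancl in HPmECC against normal. Fancd2 (chromosome 6, 113531682 to 113597017, plus strand), whose protein is ubiquitinated at the crosslink together with that of Fanci, held 10.7, 11.8, 12 and 10.8 CPM in normal libraries. It held 16.4, 17.4, 16.8 and 15.4 CPM in mECC and 25.9, 26.1, 28.6 and 23.7 in HPmECC, again 3 separate steps. HPmECC was 1.58-fold above mECC (a log2 difference of 0.66, SE 0.06, edgeR adjusted p = 2.15e-08) and exceeded normal 2.29-fold (1.2, SE 0.07, adjusted p = 4.01e-12). Fanci, its partner, was at 12.6 ± 0.90, 15.5 ± 1.33 and 19.7 ± 0.71 CPM, with smaller differences (0.31 in mECC against normal and 0.34 between the lines). Its exons share 16% of their bases with Polg on the opposite strand.

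The core complex ubiquitinates Fancd2 and Fanci, and its genes were read one by one. Fance, the adaptor to Fancd2, held 13.9, 12.9, 12.1 and 11.2 CPM in normal libraries, 24.3, 23.3, 22.4 and 22.5 in mECC, and 33.4, 32.1, 30.4 and 29.8 in HPmECC. The groups were separate throughout. Fance was 1.85-fold higher in mECC than in normal cells (0.89, SE 0.06, adjusted p = 2e-10) and 1.36-fold higher in HPmECC than in mECC (0.44, SE 0.06, adjusted p = 1.04e-06). Its level in HPmECC was 2.52-fold that of normal cells (1.33, SE 0.06, edgeR adjusted p = 2.46e-13). Fancf held 3.65, 2.23, 2.59 and 3.26 CPM in normal libraries, 5.77, 5.67, 5.87 and 6.34 in mECC, and 5.62, 6.11, 5.82 and 5.93 in HPmECC. Both lines lay above all normal libraries and overlapped each other, at 2.03-fold (1.02, SE 0.13, adjusted p = 3.91e-07) and 2.02-fold (1.01, SE 0.13, adjusted p = 4.55e-07) above normal. Its exons share 15.0% of their bases with Gas2 on the opposite strand. Fancg was at 5.76 ± 0.27, 9.49 ± 0.80 and 12.3 ± 0.54 CPM and was 2.14-fold higher in HPmECC than in normal cells (1.10, SE 0.08, adjusted p = 2.9e-10). Fancb, which lies on the X chromosome, was at 6.93 ± 0.40, 9.54 ± 0.95 and 11.7 ± 0.91 CPM.

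The remaining Fanconi genes changed little or the other way. Fancm, the translocase that brings the core complex to DNA, held 15.9, 15.1, 14.0 and 16.2 CPM in normal libraries, 11.6, 9.91, 11.3 and 11.1 in mECC, and 10.4, 11, 11.3 and 11.2 in HPmECC. All 8 cancer libraries lay below the normal ones. Its log2 fold change was -0.48 in both lines against normal (edgeR adjusted p = 2.7e-06 and 3.15e-06). On TPM scaled by trimmed means it was -0.32 and -0.14 and not called, and on log2(TPM + 1) the value in HPmECC was 0.01. Fanca was at 22.4 ± 1.89, 22.9 ± 1.89 and 20.1 ± 0.93 CPM, and its calls in HPmECC (-0.19 against mECC, adjusted p = 0.0147, and -0.16 against normal, adjusted p = 0.0385, which turned to 0.04 with library totals) were lost, the first without mECC replicate 1 (-0.16, adjusted p = 0.055) or 3, the second without normal replicate 3 (-0.12, adjusted p = 0.139) or 2 or HPmECC replicate 1 or 2. Fancl, the ubiquitin ligase itself, was at 8.05 ± 0.82, 9.59 ± 0.78 and 8.40 ± 0.47 CPM, and its call in mECC (0.25, adjusted p = 0.0142) was lost without normal replicate 4 (0.18, adjusted p = 0.0736) or mECC replicate 4. Between the lines Fancl was not called (-0.19, adjusted p = 0.0557), but it was without mECC replicate 2 (-0.23, adjusted p = 0.0403) or normal replicate 4. Fancc was not called in mECC against normal (0.15) unless mECC replicate 2 (0.21, adjusted p = 0.0196) or 4 was left out, nor between the lines (0.16) unless mECC replicate 1 (0.22, adjusted p = 0.00929) or 3 was. It was higher in HPmECC than in normal cells (0.31, adjusted p = 0.000873). Exons of Fanca share 10.5% of their bases with Zfp276, and those of Fancl 13.7% with Vrk2, both on the opposite strand.

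Of the end joining genes, the Ku pair was called higher in each line against normal cells, and Prkdc and Lig4 were not. Between the lines Xrcc6 and Prkdc were called higher in HPmECC, Lig4 was called lower, and Xrcc5 was not called. Xrcc6 (ENSMUSG00000022471, chromosome 15, 81987835 to 82040085, plus strand) and Xrcc5 encode the subunits of Ku, the ring that clamps onto broken ends. Xrcc6 held 28.1, 25.4, 30.8 and 27.5 CPM in normal libraries, 56.1, 56.8, 57.2 and 53.6 in mECC, and 91.5, 91.4, 88.4 and 90.7 in HPmECC. It rose by steps that were far larger than the spread within any group. mECC was 2.00-fold above normal (a log2 difference of 1.00, SE 0.05, edgeR adjusted p = 1.6e-13), HPmECC was 1.62-fold above mECC (0.69, SE 0.04, adjusted p = 2.13e-11) and exceeded normal 3.24-fold (1.70, SE 0.04, adjusted p = 2.77e-17). Its exons share 7.69% of their bases with Desi1 on the opposite strand. Xrcc5 held 28.1, 30.1, 33.9 and 34.5 CPM in normal libraries, 52.9, 55.4, 51.4 and 54.1 in mECC, and 55.0, 54.0, 55.6 and 55.2 in HPmECC. Both lines were above all normal libraries, by 0.75 (SE 0.05, adjusted p = 6.53e-11) and 0.79 (SE 0.05, adjusted p = 2.99e-11), and they were not called apart (0.04, 95% interval -0.06 to 0.14).

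Prkdc, the kinase that Ku recruits to the ends, held 21.7, 24.6, 24.5 and 27.7 CPM in normal libraries, 14.7, 18.5, 16.4 and 16.5 in mECC, and 21, 18.6, 19.7 and 21.5 in HPmECC. Normal cells were highest and mECC lowest, with no overlap between any 2 groups. Its log2 fold change was -0.58 in mECC against normal (SE 0.08, adjusted p = 1.15e-06) and 0.28 in HPmECC against mECC (SE 0.08, adjusted p = 0.00304). Lig4, the ligase that seals the joint, held 16.7, 17.9, 15.8 and 17.7 CPM in normal libraries, 17.6, 18.2, 17.3 and 18.5 in mECC, and 14.4, 13.7, 14.4 and 14.7 in HPmECC. HPmECC lay below every other library. Lig4 was 1.25-fold lower in HPmECC than in mECC (-0.32, SE 0.05, adjusted p = 3.78e-05) and was not called in mECC against normal (0.07, 95% interval -0.05 to 0.19).

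Of the 4 signalling kinases, only Chek2 was higher in mECC than in normal cells, and the other 3 were lower. Of all genes, 42.1% were higher and 44.2% lower there. In HPmECC against mECC 3 kinases were higher and none lower (33.8% and 34.5% of all genes). In HPmECC against normal cells 1 was higher and 1 lower (43% and 43.3%). Chek2 (ENSMUSG00000029521, chromosome 5, 110839979 to 110874145, plus strand), the kinase that ATM activates at double-strand breaks, held 9.74, 12.6, 11.5 and 11.7 CPM in normal libraries. It held 36.1, 38.5, 38.4 and 34.5 CPM in mECC and 36.8, 38.9, 36.2 and 34.1 in HPmECC. The lines overlapped fully, and both stood well above normal cells. The difference was 3.22-fold in mECC (a log2 difference of 1.69, SE 0.07, edgeR adjusted p = 1.41e-14) and 3.19-fold in HPmECC (1.67, SE 0.07, adjusted p = 1.74e-14), with an interval between the lines from -0.13 to 0.10. Atm, the kinase upstream of it, held 28.1, 31.6, 32.2 and 29.2 CPM in normal libraries, 20.6, 22.1, 21.4 and 21.4 in mECC, and 27, 24.9, 27.4 and 28.5 in HPmECC. mECC was lowest without overlap, and HPmECC overlapped normal at 1 library. Atm was 1.42-fold lower in mECC than in normal cells (-0.50, SE 0.05, adjusted p = 7.11e-08) and 1.26-fold higher in HPmECC than in mECC (0.33, adjusted p = 2.28e-05), and its decrease in HPmECC against normal (-0.17, adjusted p = 0.00645) turned to 0.03 with library totals.

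Atr, the kinase that answers to single-stranded DNA at stalled forks, held 27.7, 30.3, 28.4 and 29.0 CPM in normal libraries, 21.9, 19.5, 20.9 and 20.5 in mECC, and 31.1, 28.1, 29.9 and 29.1 in HPmECC. The mECC libraries lay below all others, and normal and HPmECC overlapped. Atr was higher by 1.43-fold in HPmECC than in mECC (0.51, SE 0.05, adjusted p = 3.25e-08), with an interval of -0.07 to 0.14 between HPmECC and normal. Chek1, its target kinase, held 10.4, 14.3, 13.4 and 14.3 CPM in normal libraries, 12.4, 10.2, 9.52 and 8.68 in mECC, and 13.3, 15.2, 14.8 and 14.0 in HPmECC. Here normal and mECC overlapped through normal replicate 1. Chek1 was higher by 1.40-fold in HPmECC than in mECC (0.49, SE 0.10, adjusted p = 0.000304).

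Mgmt showed the largest change of all members in mECC against normal cells. Its protein removes alkyl groups directly from guanine. Mgmt (ENSMUSG00000054612, chromosome 7, 136894614 to 137130266, plus strand) held 4.80, 3.63, 3.91 and 4.08 CPM in normal libraries, 0.556, 0.472, 0.688 and 0.638 in mECC, and 0.895, 0.786, 0.472 and 0.810 in HPmECC. All 8 cancer libraries were under 1 CPM and below every normal library. The counts summed to 301 in normal, 60 in mECC and 74 in HPmECC. mECC was 6.90-fold below normal (a log2 difference of -2.79, SE 0.20, edgeR adjusted p = 1.9e-10) and HPmECC 5.40-fold below (-2.43, SE 0.20, adjusted p = 9.16e-10). The lines were not called apart, with a wide interval from -0.16 to 0.87.

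Parp1 held 107, 102, 100.5 and 103 CPM in normal libraries, 117, 112, 119 and 113 in mECC, and 168, 169, 161 and 175 in HPmECC. The groups did not overlap, and the gap to HPmECC was the larger. Parp1 was higher by 1.46-fold in HPmECC than in mECC (0.55, SE 0.03, adjusted p = 1.73e-11) and 1.64-fold higher than in normal cells (0.71, SE 0.03, adjusted p = 1.04e-13). Xrcc1 held 50.5, 53.0, 47.5 and 50.4 CPM in normal libraries, 36.9, 38.4, 40.8 and 37.8 in mECC, and 41.5, 41.7, 38.4 and 43.7 in HPmECC. Both lines were below all normal libraries and overlapped each other. Xrcc1 was 1.31-fold lower in mECC than in normal cells (-0.39, SE 0.05, adjusted p = 2.57e-07), and its small rise between the lines (0.11, adjusted p = 0.0486) was lost without mECC replicate 1 (0.09, adjusted p = 0.135), mECC replicate 2 or 4, HPmECC replicate 1, 2 or 4, or normal replicate 1 or 4. Ogg1, the glycosylase for oxidised guanine, was at 11.7 ± 0.56, 13.9 ± 0.70 and 12.8 ± 0.22 CPM, higher in mECC than in normal cells (0.25, adjusted p = 0.00097) and not called in HPmECC against either group, although it was lower than mECC without mECC replicate 4 (-0.16, adjusted p = 0.0335). Exons of Ogg1 share 10.6% of their bases with Camk1 on the opposite strand.

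Ratios within a library do not depend on how libraries are scaled, so 11 pairs of partners were compared as TPM ratios with an exact two-sided permutation test of 4 against 4 libraries, whose smallest possible p is 0.0286. Benjamini-Hochberg adjustment covered all 33 tests, and the adjusted value of pairs at that smallest p was 0.0496. Every call had this adjusted value, just under 0.05, so all passed together and depend on which 11 pairs were chosen. Such calls numbered 8 in mECC against normal, 5 in HPmECC against mECC and 6 in HPmECC against normal. The Ku ratio, Xrcc6 over Xrcc5, was 1.12 ± 0.13 in normal libraries, 1.36 ± 0.0365 in mECC and 2.06 ± 0.0566 in HPmECC. Every HPmECC library (1.99 to 2.12) lay above every other, and its ratio was 1.52-fold that of mECC (exact permutation p = 0.0286, adjusted p = 0.0496). Bard1 over Brca1 was 0.515 ± 0.030 in normal libraries, 0.344 ± 0.040 in mECC and 0.532 ± 0.048 in HPmECC. The dip in mECC was called against both other groups (exact permutation p = 0.0286, adjusted p = 0.0496 each), and HPmECC against normal was not (exact permutation p = 0.571).

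Pms2 over Mlh3 was 1.06 ± 0.14 in normal libraries, 2.37 ± 0.39 in mECC and 1.66 ± 0.0543 in HPmECC, and all 3 differences were called at the smallest exact permutation p. Fancd2 over Fanci was 0.847 ± 0.068, 1.03 ± 0.088 and 1.25 ± 0.14, called in all 3 comparisons. Chek2 over Atm was 1.94 ± 0.38, 8.16 ± 1.26 and 7.73 ± 0.73, so the ratio was 4.23-fold and 4.03-fold that of normal cells, and the lines were not called apart on TPM (a log2 difference of -0.07, exact permutation p = 0.629), where CPM gave -0.35. Rad51c over Xrcc3 was 0.636 ± 0.039, 2.15 ± 0.42 and 2.52 ± 0.53, also called against normal only. Chek1 over Atr was at 2.00 ± 0.35, 2.07 ± 0.14 and 1.93 ± 0.37, with no call. Msh6 over Msh3 was 4.21 ± 0.54, 4.15 ± 0.65 and 5.09 ± 0.40, also with no call. Transcript lengths implied by counts over TPM changed by less than 20% for every member in every comparison, from -19.4% to 17.5%. On the log2 scale these extremes were -0.31 (Fancm in HPmECC against normal) and 0.23 (Atm in HPmECC against mECC). They are not small beside the members' median absolute log2 fold change between the lines, 0.33. The part of length in calls lost on TPM was not tested.

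**Figure D4:**
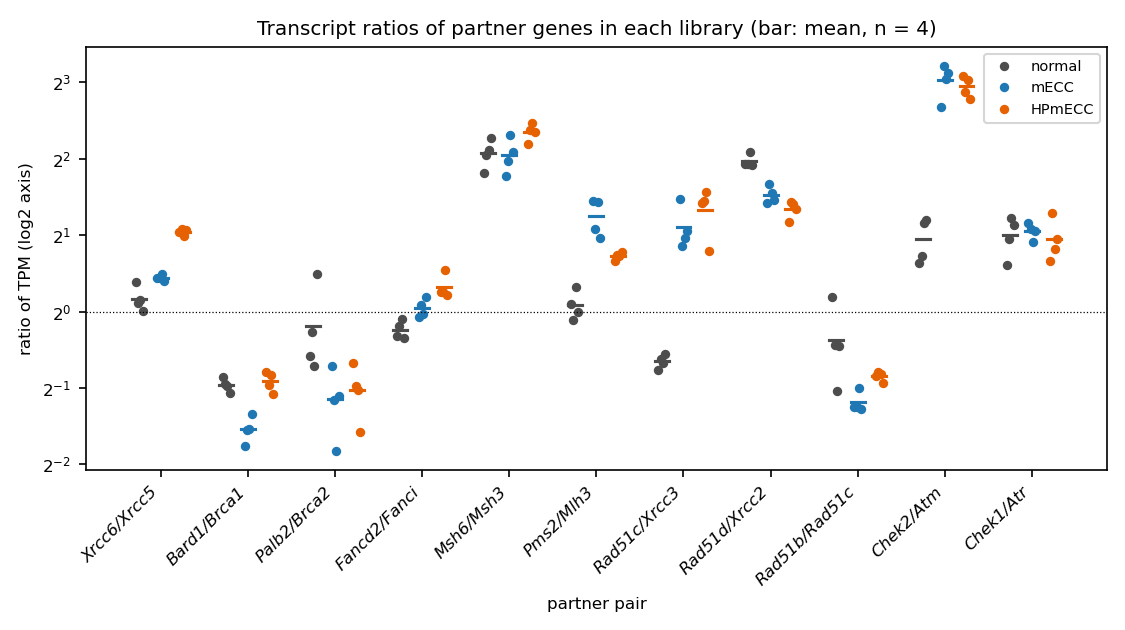
TPM ratios of 11 partner pairs in each library (points; horizontal bars are group means, n = 4) on a log2 axis, with a dotted line at equal TPM. Xrcc6/Xrcc5 reaches 2.06 in HPmECC, Bard1/Brca1 dips to 0.344 in mECC, and Chek2/Atm is 8.16 and 7.73 in the lines against 1.94 in normal cells.

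Other genes of the break repair pathways are to be read against the shares of all genes, which were 42.1% higher and 44.2% lower in mECC against normal, 33.8% and 34.5% in HPmECC against mECC, and 43% and 43.3% in HPmECC against normal. Of 15 other recombination and end resection genes, 7 were higher and 2 lower in mECC against normal. The share higher (46.7%) was near that of all genes, and the share lower (13.3%) was below theirs (44.2%). In HPmECC 8 were higher and 3 lower against mECC, and 10 higher and 3 lower against normal. Sfr1, which assists the recombinase, rose from 112 ± 2.05 CPM in normal cells to 214 ± 8.02 in mECC (0.93, adjusted p = 8.14e-16), and Mre11a, the nuclease that starts resection, stood 1.38-fold above its mECC level in HPmECC (0.46, adjusted p = 5.88e-09). Of 12 other Fanconi and crosslink genes, 4 were higher and 3 lower in mECC against normal and in HPmECC against mECC, and 6 and 6 in HPmECC against normal. Rev3l, the catalytic subunit of a polymerase that copies past lesions, was 2.45-fold lower in HPmECC than in mECC, at 36.5 ± 4.13 against 89.6 ± 4.49 CPM (-1.29, SE 0.06, edgeR adjusted p = 6.13e-13). Ube2t, the ubiquitin-conjugating partner of Fancl, was 1.70-fold higher there (0.76, adjusted p = 3.35e-07). Of 10 other end joining genes, 6 were higher and 3 lower in mECC against normal, 4 and 1 in HPmECC against mECC, and 7 and 3 in HPmECC against normal. Paxx, a stabiliser of Ku at the ends, was at 5.09 ± 0.52, 9.33 ± 0.60 and 12.6 ± 1.39 CPM in normal, mECC and HPmECC (0.87 and 0.43 in successive comparisons).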

How the data were processed

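RNA from 12 libraries (4 per group) was measured by RNA-seq. Per the submitters' processing notes, reads were handled with Trim Galore, STAR 2.6.1a and RSEM 1.3.1 on GRCm38; the sources used here do not name the annotation release or strand setting. The authors deposited RSEM expected counts, which are whole numbers in the files and were used rounded, and TPM values. FPKM values were not used. Counts were tested with edgeR 4.0.16 (quasi-likelihood, TMM scaling, filterByExpr with a minimum count of 10, all 12 libraries in 1 fit), and p-values were adjusted by Benjamini-Hochberg over 15283 genes at 0.05; intervals are at 95%. Depth ran from 16332060 to 26873582 counts per library, and counts of 2 libraries of a group differed by 2.58 to 7.09 times counting noise (chi-square per degree of freedom), which is more than reading 1 library again would give and does not tell separate cultures from repeat preparations. Partner ratios came from TPM and exact permutation tests (SciPy 1.17.1). R 4.3.3, limma 3.58.1, DESeq2 1.42.0, Python 3.11.15 and matplotlib 3.10.9 were used; positions are from GENCODE M21. The fits were tested on simulated data.

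Genes with full statistics are, in each class and comparison, the members with the largest changes past the threshold, by a written rule; others are given more briefly. Members and gene lists were chosen with earlier results of these data known. Alternatives covered scaling, filters, DESeq2, limma on log2 TPM, a minimum fold change, a replicate block and leaving out each library.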

Additional observations from a re-analysis of the deposited data

Results flagged for a closer look

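In 126 checks of 1 member in 1 group of 4 libraries, 2 showed a library far from the other 3, and chance alone flags about 1 in 20 such groups. Rad51b in HPmECC replicate 4 was at 5.52 CPM, while the other HPmECC libraries ran from 7.16 to 7.47 CPM. Without that library its log2 fold change was 1.05 in HPmECC against mECC (edgeR adjusted p = 9.87e-07) and 2.19 against normal (edgeR adjusted p = 1.43e-10). Rad51d in mECC replicate 3 was at 26.0 CPM, while the other mECC libraries ran from 23.9 to 24.2 CPM. When it was left out, Rad51d differed by 0.59 (log2) in mECC against normal (edgeR adjusted p = 3.04e-08) and -0.06 in HPmECC against mECC (edgeR adjusted p = 0.376).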

How the results depend on the processing

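Over all alternatives, 2575 member values kept direction and side of the threshold, 205 lost the call, 40 gained one and 57 changed sign. The lost calls include those under the minimum log2 fold change of 1, a stricter test. These were 30 in HPmECC against mECC, 34 in mECC against normal and 27 in HPmECC against normal. The cause of the other changes was not tested. Apart from a minimum fold change, 15 of 30 calls in HPmECC against mECC, 25 of 37 in mECC against normal and 29 of 36 in HPmECC against normal held throughout. Members called lower in HPmECC against mECC were 5 with median-of-ratios factors and 6 with library totals (5451 and 5848 over all genes). Those called higher were 15 on log2(TPM + 1) and 14 on log2(TPM + 0.1) (3875 and 3874 over all genes). In mECC against normal, 3 were lower on either TPM scale (5275 and 5258 over all genes). In HPmECC against normal, 2 were lower with library totals (all genes 5582) and 1 on either TPM scale (all genes 5480 and 5475). On TPM scaled by trimmed means, an alternative added after seeing the data, 4 were lower (all genes 6416). Tested against a log2 fold change of 1, 0 members were higher and 0 lower in HPmECC against mECC (all genes 662 and 983), 2 and 1 in mECC against normal (2344 and 3171), and 8 and 1 in HPmECC against normal (2335 and 3224).

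Leaving out 1 library gave 25 to 28 members higher and 1 to 4 lower in HPmECC against mECC (1 without mECC replicate 1), over all genes 5013 to 5236 and 5101 to 5325. In mECC against normal it gave 23 to 27 higher (23 without normal replicate 4) and 10 lower, over all genes 6372 to 6499 and 6662 to 6890. In HPmECC against normal it gave 29 higher and 6 to 7 lower, over all genes 6512 to 6634 and 6564 to 6727.

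Departures from the group mean correlated weakly between same-numbered libraries, from -0.027 to 0.080. Replicate 2 matched its own number best in each comparison (0.050, 0.080 and 0.041). Such values cannot tell whether same-numbered libraries were handled together. With a replicate block, 27 members were higher and 3 lower in HPmECC against mECC (all genes 5111 and 5210). The counts were 27 and 10 in mECC against normal (6405 and 6718), and 29 and 7 in HPmECC against normal (6539 and 6607). Xrcc1 lost its call between the lines (0.10) and Fancc gained one (0.17).

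Sign changes on log2 fold changes were as follows. In HPmECC against mECC, Fancm was at -0.011 with median-of-ratios factors and with DESeq2, -0.042 with library totals and -0.0021 with the 10 CPM filter. Xrcc5 was at -0.0049 with library totals and -0.027 on either TPM scale, and Chek2 at 0.035 on scaled TPM. In mECC against normal, Mlh3 was at 0.020 and 0.023 on the TPM scales. Bard1 was at -0.018 with median-of-ratios factors and DESeq2, -0.0029 with the 10 CPM filter and -0.0013 on scaled TPM. Xrcc3 was at 0.15 with library totals, 0.33 and 0.41 on the TPM scales and 0.14 on scaled TPM. In HPmECC against normal, Palb2 was at -0.033 with median-of-ratios factors and DESeq2, -0.074 on scaled TPM and -0.0026 with the replicate block. Fanca was at 0.036 with library totals, 0.21 and 0.23 on the TPM scales and 0.040 on scaled TPM. Fancl was at -0.12 and Chek1 at -0.013 on scaled TPM, Fancm at 0.0053 and 0.0099 on the TPM scales, Atm at 0.025 with library totals, and Atr at -0.0065 with median-of-ratios factors and -0.0068 with DESeq2. Taken from CPM, the log2 ratio of Palb2 over Brca2 was -0.068 in HPmECC against mECC, and that of Chek1 over Atr 0.11 in HPmECC against normal.

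With 1 library left out, log2 fold changes in HPmECC against mECC ran over -0.0196 to 0.0226 for Msh6, -0.072 to 0.02 for Pms2, -0.028 to 0.026 for Fancf, -0.045 to 0.031 for Fancm and -0.049 to 0.026 for Chek2. They ran over -0.033 to 0.0497 for Bard1 and -0.015 to 0.079 for Fanca in mECC against normal, and over -0.061 to 0.054 for Palb2 and -0.0097 to 0.11 for Fancl in HPmECC against normal. The log2 ratio of Palb2 over Brca2 ran over -0.066 to 0.31 in HPmECC against mECC, and that of Msh6 over Msh3 over -0.12 to 0.062 in mECC against normal. That of Chek1 over Atr ran over -0.053 to 0.15 in mECC against normal and -0.18 to 0.037 in HPmECC against normal.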

Other observations

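Base excision repair removes single damaged bases. Of 17 such genes outside the 42 members, 8 were higher and 6 lower in mECC against normal, near the shares of all genes (42.1% and 44.2%), and 9 were higher and none lower in HPmECC than in mECC (33.8% and 34.5% of all genes). Mbd4, a glycosylase for mismatched thymine, was at 2.09 ± 0.271 CPM in normal libraries, 8.83 ± 0.323 in mECC and 9.65 ± 0.653 in HPmECC (n = 4 each), 4.23-fold higher in mECC (a log2 difference of 2.08, SE 0.11, edgeR adjusted p = 8.41e-13). Ung, which removes uracil, was at 8.70 ± 0.83, 12.4 ± 1.34 and 24.1 ± 0.653 CPM and rose 1.94-fold from mECC to HPmECC (0.96, edgeR adjusted p = 1.02e-09). Apex1, which cuts the strand at the emptied site, was at 63.0 ± 2.22, 40.9 ± 2.26 and 58.0 ± 1.89 CPM, lowest in mECC. Neil2 had 73 counts over the normal libraries, 0 in mECC and 3 in HPmECC.

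Nucleotide excision repair cuts out bulky lesions, and 9 of its 14 listed genes were lower and 3 higher in mECC than in normal cells (44.2% and 42.1% of all genes). Ercc1, a subunit of the nuclease that cuts on one side of the lesion, was 2.59-fold lower in mECC, at 15.1 ± 1.19 against 39.1 ± 1.40 CPM (-1.37, SE 0.05, edgeR adjusted p = 1.2e-14). Its partner Ercc4 was 1.83-fold lower, at 9.70 ± 0.789 against 17.7 ± 0.945 CPM (-0.87, edgeR adjusted p = 1.1e-09). Uvssa, which acts at stalled RNA polymerase, was at 7.64 ± 1.01, 18.9 ± 0.884 and 19.8 ± 0.474 CPM in normal, mECC and HPmECC, 2.47-fold higher in mECC than in normal cells (edgeR adjusted p = 7.4e-12).

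Among 16 damage mediators and checkpoint genes, 8 were higher and 6 lower in mECC against normal (42.1% and 44.2% of all genes), and 12 were higher and 2 lower in HPmECC than in mECC (33.8% and 34.5%). Rad1, part of the clamp loaded at damage, was at 9.30 ± 0.344, 14.6 ± 1.43 and 26.7 ± 1.19 CPM and rose 1.83-fold from mECC to HPmECC (0.87, edgeR adjusted p = 6.87e-10). Timeless, a fork protection gene, rose 1.68-fold in the same comparison (0.75, edgeR adjusted p = 6.24e-10). Rpa3, a subunit of the protein that coats single-stranded DNA, was at 9.91 ± 0.858, 21.8 ± 0.976 and 22.8 ± 1.05 CPM, 2.19-fold higher in mECC than in normal cells (edgeR adjusted p = 7.14e-12).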
